A study of Mus musculus with 3 samples.

Results

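The miR-181 family was described from the small RNA sequencing of mouse TAG1 ES cells. Its members were every listed arm of miR-181a, miR-181b, miR-181c and miR-181d, chosen by name, and they made up 8 of the 693 miRNAs listed. These were 4 arms from the 5p side of the hairpin and 4 from the 3p side. The 3p arms of miR-181b-1 and miR-181b-2 were not among the listed miRNAs, which the authors limited to those with at least 10 reads over the 3 libraries.

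TAG1 is 1 mouse ES cell line in which doxycycline (Dox) switches on Alk4*, a constitutively active form of a TGF-β family receptor that phosphorylates Smad2/3. The Control library came from untreated TAG1 cells in medium with FBS and LIF, the SB library from cells given 16 hrs of 30 µM of the receptor inhibitor that the labels spell SB-431541, and the Dox library from cells that received the inhibitor likewise before 1 µg/µl Dox for 12 hrs. By the study's methods the cells of the SB and Dox libraries were in medium with a serum replacement (KSR) and LIF, so medium and treatment cannot be told apart in any comparison with Control. Between SB and Dox, the presence of Dox, the further 12 hrs and the induction of Alk4* cannot be told apart. No Dox-treated cells without Alk4* were sequenced. There was 1 library per condition, so no difference has a replicate check and no p-value is given.

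A miRNA hairpin is cut by Drosha and then Dicer into a short duplex, and one arm of it, the guide, is usually kept in Argonaute while the other arm is mostly lost. The guide pairs with target mRNAs mainly through its seed, the bases at positions 2 to 8 from its 5′ end, and miRNAs with the same seed have overlapping sets of predicted targets. The 5p arms of the miR-181 hairpins are the usual guides, and the family is known from lymphocyte development, from neural and muscle cells and from tumours. Smad2/3 is known to act on miRNAs as a transcription factor and also at the hairpin, where Smads can join the Drosha complex on some primary transcripts.

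The mature sequences of all 8 members were matched by name in RefSeq (GRCm38.p6). The 5p arms are shown because their shared seed, in capitals, is what joins them into 1 family, while their other bases are what allows reads to be assigned to one of them.
miR-181a-5p: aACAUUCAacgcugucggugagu
miR-181b-5p: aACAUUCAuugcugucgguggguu
miR-181c-5p: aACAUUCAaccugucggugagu
miR-181d-5p: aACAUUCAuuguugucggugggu

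The seed ACAUUCA was held by exactly 4 mature mouse miRNAs of the RefSeq table, these same 4, and all were listed. miR-181b-5p and miR-181d-5p were the closest pair. Over the 23 bases of miR-181d-5p they differed by a single substitution, C12U, counted from the 5′ end with the base of miR-181b-5p first. The longest run of bases shared by any pair of 5p arms was 12 bases, and the longest shared by any pair of the 8 members was 15 bases. The authors kept reads longer than 16 bases and allowed perfect matches only, so a read that lay within one of these mature sequences could not also lie within another.

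The 3p arms are shown because their seeds, also in capitals, are not one set.
miR-181a-1-3p: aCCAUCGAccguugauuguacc
miR-181a-2-3p: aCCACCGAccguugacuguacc
miR-181c-3p: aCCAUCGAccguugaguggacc
miR-181d-3p: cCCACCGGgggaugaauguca

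miR-181a-1-3p and miR-181c-3p had the same seed and differed at U16G and U19G, with the base of miR-181a-1-3p first. miR-181a-2-3p and miR-181d-3p each had a seed of its own.

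The family comes from 6 hairpins in 3 places of the genome (GRCm38, GENCODE). Mir181c (chr8:84178873-84178961) and Mir181d (chr8:84178716-84178787) lie on the minus strand with 85 bases between them, inside an intron of 1 annotated transcript of Nanos3 and on its strand. Nanos3 encodes an RNA-binding protein of germ cells. Mir181a-1 (chr1:137966455-137966541) and Mir181b-1 (chr1:137966639-137966718) lie on the plus strand with 97 bases between them, over an exon of the lincRNA A430106G13Rik on the same strand and within introns of Gm4258 on that strand and of Gm26936 on the other. Mir181a-2 (chr2:38852735-38852810) and Mir181b-2 (chr2:38853830-38853918) lie on the plus strand with 1019 bases between them, within introns of Nr6a1, which runs on the opposite strand and encodes an orphan nuclear receptor, and Mir181b-2 also overlaps an exon of Gm44144 on that opposite strand. Mature miR-181a-5p and miR-181b-5p can each come from 2 of these hairpins, and their reads do not tell which, whereas the miR-181c and miR-181d arms each come from 1.

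The authors' unit was rpm, the reads of a miRNA per 1000000 reads of its library, and 1 read was worth 0.0913 rpm in Control, 0.0881 rpm in SB and 0.101 rpm in Dox. All 693 values of each library were whole numbers of reads within 0.001 of a read, and reads below are those numbers. Of the library totals implied by these values, which are not the totals the study states, listed miRNAs held 28.3% in Control, 24.1% in SB and 33.4% in Dox, and why the totals differ was not tested. The share differed between libraries, so a scaling by total reads and one by miRNA reads give different ratios. The brackets hold exact 95% intervals, by the Poisson distribution for a level and by the Clopper-Pearson method for a share or ratio of reads, and they cover counting error only, since no molecular identifier told PCR copies from molecules. In bulk RNA, fewer cells that make a miRNA and less of it per cell cannot be told apart. Reads of different miRNAs were compared as reads, since ligation and PCR need not treat all sequences alike.

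miR-181d-5p was the member that dominated the family in every library. It had 107042 reads and 9770 rpm in Control, 42731 reads and 3763 rpm in SB, and 183584 reads and 18552 rpm in Dox. It ranked 6 among the listed miRNAs in Control, 15 in SB and 3 in Dox. Of all reads on listed miRNAs it took 3.45% in Control, 1.56% in SB and 5.56% in Dox, so the SB library was the low one and the Dox library the high one. On the log2 scale the ratio of rpm was −1.38 (−1.39 to −1.36) for SB over Control, 2.30 (2.29 to 2.32) for Dox over SB and 0.93 (0.91 to 0.94) for Dox over Control.

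miR-181c-5p, the guide of the neighbouring hairpin, had the same order of libraries at a lower level. It had 11420 reads and 1042 rpm in Control, 6098 reads and 537 rpm in SB, and 13507 reads and 1365 rpm in Dox. Its log2 ratio was −0.96 (−1.002 to −0.91) for SB over Control, 1.35 (1.30 to 1.39) for Dox over SB and 0.39 (0.35 to 0.43) for Dox over Control. Its Dox level was above Control by less than that of any other arm of the chromosome 8 hairpins.

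The 3p arms of these hairpins, the arms that are usually lost, followed the same order. miR-181c-3p had 485 reads (44.3 rpm) in Control, 297 reads (26.2 rpm) in SB and 1212 reads (122 rpm) in Dox. Its log2 ratio was −0.76 (−0.97 to −0.55) for SB over Control, 2.23 (2.04 to 2.42) for Dox over SB and 1.47 (1.32 to 1.62) for Dox over Control. The Dox level of miR-181c-3p was thus above the Control level by more than that of its guide was.

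miR-181d-3p was rare in all libraries. It had 49 reads in Control, or 4.47 rpm (3.31 to 5.91). It had 22 reads in SB, or 1.94 rpm (1.21 to 2.93), and 247 reads in Dox, or 24.96 rpm (21.9 to 28.3). The intervals of the Control and SB levels did not overlap that of the Dox level. The log2 ratio was −1.21 (−2.003 to −0.45) for SB over Control, 3.69 (3.06 to 4.39) for Dox over SB and 2.48 (2.03 to 2.95) for Dox over Control. Among the 693 listed miRNAs only 2 had a higher ratio of Dox over SB than miR-181d-3p, and its ratio rested on the 22 reads of the SB library.

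**Figure D1:**
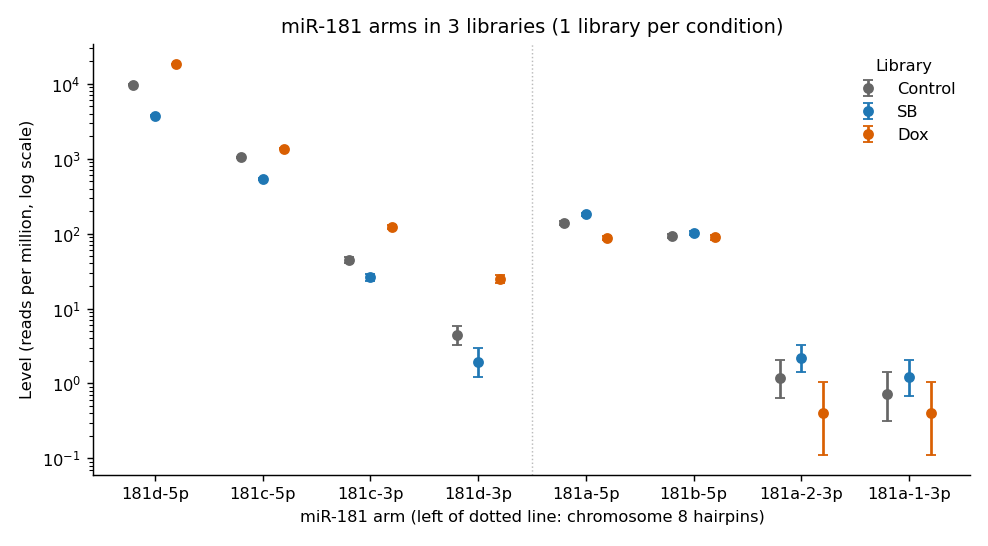
Level of each listed miR-181 arm in the Control (grey), SB (blue) and Dox (orange) libraries, in rpm on a log axis, with 95% Poisson intervals that cover counting error only (1 library per condition). The 4 arms of the chromosome 8 hairpins, left of the dotted line, were lowest in SB and highest in Dox, from 3763 to 18552 rpm for miR-181d-5p, and the 4 arms of miR-181a and miR-181b, on the right, had their highest value in SB.

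The guides of the other hairpins were far less abundant and had another order of libraries. miR-181a-5p, the member best known from T cell signalling, had 1519 reads and 139 rpm in Control, 2045 reads and 180 rpm in SB, and 865 reads and 87.4 rpm in Dox. The SB library was the high one and the Dox library the low one. Its log2 ratio was 0.38 (0.28 to 0.47) for SB over Control, −1.04 (−1.16 to −0.93) for Dox over SB and −0.67 (−0.79 to −0.54) for Dox over Control. This order was the reverse of that of miR-181d-5p, with which it shares its seed.

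miR-181b-5p, which differs from miR-181d-5p by 1 base, had levels in rpm that differed by less than 25% between any of the 3 libraries. It had 1023 reads and 93.4 rpm in Control, 1160 reads and 102 rpm in SB, and 879 reads and 88.8 rpm in Dox. Its log2 ratio was 0.13 (0.01 to 0.25) for SB over Control, −0.20 (−0.33 to −0.07) for Dox over SB and −0.07 (−0.20 to 0.06) for Dox over Control, and none passed the study's criteria in rpm, although miR-181b-5p was called higher in SB than in Control and lower in Dox than in SB when scaled to the reads on listed miRNAs, with 0.36 and −0.67, or by TMM, with 0.34 and −0.59. Other scalings also called single ratios of it, Dox lower than SB by median of ratios (−0.58) and quantile normalization (−0.42) and Dox lower than Control when scaled to miR-26a-5p (−0.37). For every 100 reads of miR-181d-5p there were 0.956 reads of miR-181b-5p in Control, 2.71 in SB and 0.479 in Dox. The Dox value is the most that a misread of the 1 differing base could give per 100 reads there, and the part of misread bases in these reads was not tested.

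The 3p arms of the miR-181a hairpins were near the limit of detection. miR-181a-2-3p had 13 reads in Control, 25 in SB and 4 in Dox, with a log2 ratio of 0.89 (−0.13 to 1.98) for SB over Control and −2.45 (−4.43 to −0.91) for Dox over SB. miR-181a-1-3p had 8 reads in Control, 14 in SB and 4 in Dox, with a log2 ratio of 0.76 (−0.60 to 2.22) for SB over Control and −1.61 (−3.67 to 0.06) for Dox over SB. Both were highest in SB, as their guide was, but of their ratios between libraries only that of miR-181a-2-3p for Dox over SB had an interval without 0.

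The study asked which miRNAs follow the p-Smad2/3 activation profile, lower in SB than in Control and higher in Dox than in SB. Its criteria, used here on the whole list, were that the higher library exceed the lower by at least 25% and that the Z-score pass the value that leaves 5% in the tails of the normal curve. The Z-score is the difference between the shares of reads that a miRNA takes in 2 libraries divided by its counting error, and it compares libraries and not conditions. Because both comparisons use the SB library, a low value in that library counts toward both. The profile was met by 4 of the 8 members, the 4 arms of miR-181c and miR-181d, beside 20.9% of all listed miRNAs. The opposite profile was met by 1 of the 8, miR-181a-5p, beside 9.67% of all listed miRNAs. Under other scalings it was met by 3 (reads on listed miRNAs, beside 16.9%, or TMM, beside 16.2%), by 2 (median of ratios, beside 15.6%, or quantile normalization, beside 14.4%) or by 0 (miR-26a-5p, beside 7.65%). By the size of the ratio alone, with no Z-score, the activation profile was met by the same 4 members, beside 31.0% of all listed miRNAs, and the opposite profile by 3, the arms of miR-181a, beside 15.3%.

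By comparison, SB was lower than Control for 4 members, beside 30.2% of all listed miRNAs, and higher for 1, beside 15.3%. Dox was higher than SB for 4 members, beside 41.7% of all listed miRNAs, and lower for 3, beside 17.9%. Those 3 were miR-181a-5p and the 3p arms of both miR-181a hairpins, and the Z-score of miR-181a-1-3p passed at −2.07 although the exact interval of its ratio reached 0.06. Dox was higher than Control for 4 members, beside 30.6% of all listed miRNAs, and lower for 2, beside 19.8%. Of the 4, miR-181c-5p did not reach 25% under 4 of the 6 other scalings, with log2 ratios of 0.15 (reads on listed miRNAs), 0.19 (median of ratios), 0.21 (TMM) and 0.09 (miR-26a-5p). Of the 2 that were lower, miR-181a-2-3p passed with a Z-score of −1.98, and the exact interval of its log2 ratio ran from −3.63 to 0.14.

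The ratios of the chromosome 8 guides can be read against those of all listed miRNAs, whose median log2 ratio was −0.19 for SB over Control, 0.38 for Dox over SB and 0.19 for Dox over Control. The medians over the 8 members were −0.31, 0.57 and 0.16, and they lie between the high and the low members. Among the 291 listed miRNAs with at least 100 reads in each library, 5 had a lower ratio of SB over Control than miR-181d-5p and 7 had a higher ratio of Dox over SB. In the same group 9 had a higher ratio of Dox over SB than miR-181c-3p, and 21 had a lower one than miR-181a-5p.

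**Figure D2:**
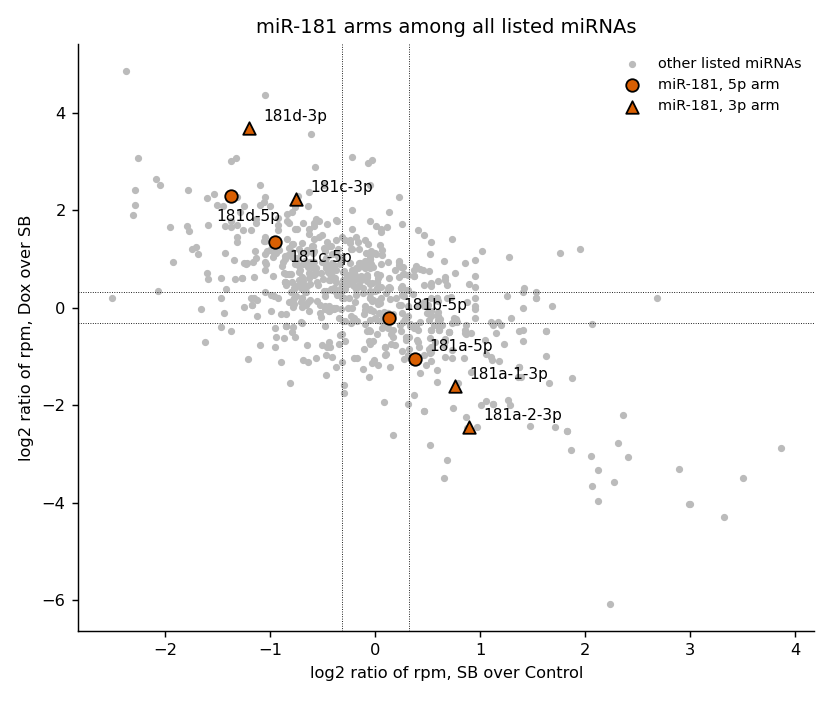
Each point is 1 of the 693 listed miRNAs, with its log2 ratio of rpm for SB over Control on the x axis and for Dox over SB on the y axis, and miR-181 members are orange circles (5p arms) and triangles (3p arms). Dotted lines mark a difference of 25%, the slope of the cloud is partly built in because both axes use the SB library, and the miR-181c and miR-181d arms lie at upper left while the miR-181a and miR-181b arms lie right of 0 on x and under 0 on y.

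The 4 guides share a seed, so their reads were also summed. The sum was 11045 rpm in Control, 4583 rpm in SB and 20093 rpm in Dox, or 3.90%, 1.90% and 6.02% of the reads on listed miRNAs. The log2 ratio of the sum was −1.27 (−1.28 to −1.25) for SB over Control, 2.13 (2.12 to 2.15) for Dox over SB and 0.86 (0.85 to 0.87) for Dox over Control. The sum was carried by miR-181d-5p, without which the ratios were −0.64, 0.91 and 0.27.

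The make-up of the seed family differed between the libraries as well as its total. miR-181d-5p took 88.5% (88.3 to 88.6) of the guide reads in Control, 82.1% (81.8 to 82.4) in SB and 92.3% (92.2 to 92.4) in Dox. miR-181c-5p took 9.44% in Control, 11.7% in SB and 6.79% in Dox. miR-181a-5p took 1.26% (1.19 to 1.32) in Control, 3.93% (3.76 to 4.10) in SB and 0.435% (0.407 to 0.465) in Dox. miR-181b-5p took 0.845% in Control, 2.23% in SB and 0.442% in Dox, so the other 3 guides had their largest shares in the SB library, where miR-181d-5p had its smallest.

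Ratios between members within 1 library are the same under any scaling by 1 factor per library, which quantile normalization is not. There were 9.37 (9.19 to 9.56) reads of miR-181d-5p per read of miR-181c-5p in Control, 7.01 (6.82 to 7.20) in SB and 13.6 (13.4 to 13.8) in Dox, so the arms of these neighbouring hairpins were not in 1 fixed ratio. Their 3p arms were in the other order of abundance, with 0.101 (0.0737 to 0.136) reads of miR-181d-3p per read of miR-181c-3p in Control, 0.0741 (0.0457 to 0.114) in SB and 0.204 (0.177 to 0.234) in Dox. Both ratios were highest in Dox and lowest in SB. miR-181a-5p had 1.48 (1.37 to 1.61) reads per read of miR-181b-5p in Control, 1.76 (1.64 to 1.90) in SB and 0.984 (0.895 to 1.082) in Dox, an interval that includes equal numbers.

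The guide exceeded the other arm of the same hairpin least in the Dox library. For miR-181c the ratio of 5p to 3p reads was 23.5 (21.5 to 25.8) in Control, 20.5 (18.3 to 23.1) in SB and 11.1 (10.51 to 11.8) in Dox. For miR-181d it was 2185 (1652 to 2953) in Control, 1942 (1283 to 3100) in SB and 743 (656 to 845) in Dox. For both hairpins the Control and SB intervals overlapped and the Dox interval lay below them.

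As a difference of log2 ratios, the 3p arm of miR-181c was above its guide by 0.88 (0.69 to 1.07) for Dox over SB and by 1.079 (0.92 to 1.24) for Dox over Control, while for SB over Control the difference of 0.20 had an interval from −0.02 to 0.41. For miR-181d the difference was 1.39 (0.75 to 2.09) for Dox over SB and 1.56 (1.11 to 2.03) for Dox over Control. For SB over Control it was 0.17 (−0.63 to 0.92), an interval that includes 0. It overlaps the interval for Dox over SB and ends below that for Dox over Control. The mir-181d hairpin, shown with its arms in capitals (72 bases, RefSeq, GRCm38.p6, minus strand), gave these 2 arms.
mir-181d: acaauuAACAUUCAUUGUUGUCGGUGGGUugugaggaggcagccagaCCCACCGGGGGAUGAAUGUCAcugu

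The same difference was computed for pairs of 5p and 3p arms listed under 1 name with at least 20 reads per arm and library, a minimum chosen after the values were seen. Pairs in which the name of only 1 arm holds a hairpin number, such as miR-92a-1-5p, were not compared here. Over the 136 arm pairs the median difference of the rarer arm from the more abundant one was 0.14 for Dox over SB, with 71 pairs above 0 and 65 below. For Dox over SB 32 pairs had a larger difference than miR-181c and 13 a larger one than miR-181d. For Dox over Control, where the median was 0.05, these numbers were 15 and 9. For SB over Control the median was 0.00, and 48 pairs had a larger difference than miR-181c and 52 a larger one than miR-181d.

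**Figure D3:**
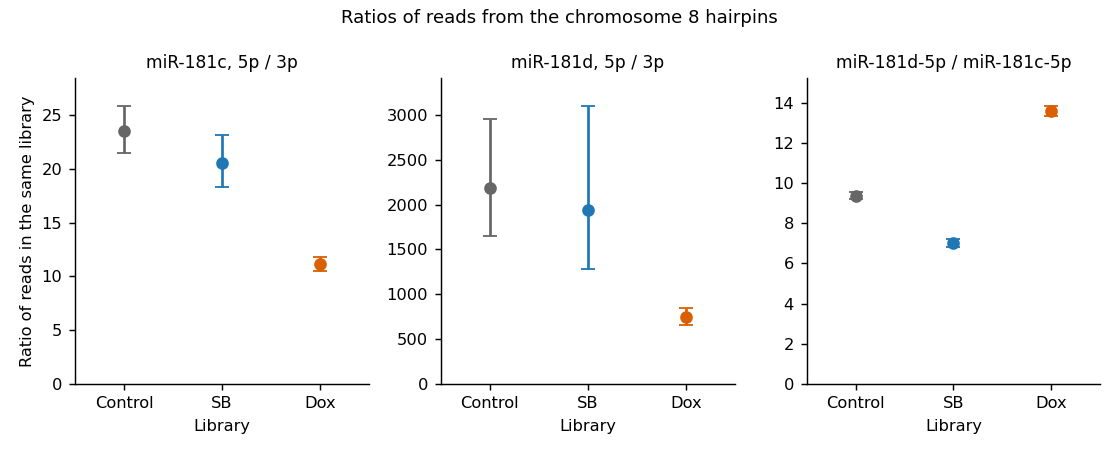
Read ratios within each library for the chromosome 8 hairpins, with 95% Clopper-Pearson intervals that cover counting error only: 5p over 3p reads of miR-181c (left), 5p over 3p reads of miR-181d (middle) and miR-181d-5p over miR-181c-5p reads (right), each on a linear axis from 0. The 5p to 3p ratio was lowest in Dox for both hairpins, at 11.1 and 743, and miR-181d-5p exceeded miR-181c-5p most in Dox, at 13.6.

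The letters CAGAC, known as a Smad-binding motif in the stems of some hairpins, were looked for on the RNA strand of 5 of the 6 miR-181 hairpins, and Mir181c was not searched here. They were in the mir-181d hairpin at bases 44 to 48. These lie between the 5p and 3p arms, except for the last, which is the first base of the 3p arm. They were not in the hairpins of Mir181a-1, Mir181a-2, Mir181b-1 or Mir181b-2. CAGAC was in 80 of 1005 mouse hairpins of the RefSeq table (7.96%) and in 16 of the 328 that gave listed miRNAs (4.88%). The reverse complement GUCUG was in none of the 5 miR-181 hairpins searched and in 14.2% of all hairpins. A match of letters is a description of the sequence and not a site of binding.

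Within 50000 bases of a miR-181 hairpin the only other annotated hairpins were on chromosome 8, beginning 29556 bases from Mir181c. They are Mir23a, Mir27a and Mir24-2 on the plus strand, the strand opposite to Mir181c and Mir181d, which gave 6 listed arms, and Mir3074-2, which gave none. Of these 6 arms 1 met the activation profile, beside 20.9% of all listed miRNAs. It was miR-23a-5p, with 24.3 rpm in Control, 15.9 rpm in SB and 188 rpm in Dox and a log2 ratio of 3.57 for Dox over SB. Its partner miR-23a-3p, the guide of that hairpin, had 739, 862 and 895 rpm. The guide miR-27a-3p had 161 rpm in Control, 210 rpm in SB and 383 rpm in Dox, and miR-24-3p, which a second hairpin elsewhere also gives, had 262, 322 and 414 rpm. For Dox over SB 5 of the 6 arms were higher and 0 lower by the criteria, beside 41.7% and 17.9% of all listed miRNAs. For SB over Control 2 were higher and 1 lower, beside 15.3% and 30.2%. Scaled to reads on listed miRNAs, by median of ratios, by TMM or by quantile normalization, 1 of the 6 arms was lower in Dox than in SB. That arm met the opposite profile, beside 14.4% to 16.9% of all listed miRNAs. Under the 6 other scalings 3 to 4 of the 6 were higher in Dox than in SB, beside 163 to 270 of the 693 listed miRNAs. Higher in SB than in Control were 0 to 4 of the 6, beside 65 to 165 of the 693. The 1 arm lower in SB than in Control was miR-23a-5p under each, so none of the guides of these hairpins was called lower there, whereas miR-181c-5p and miR-181d-5p were.

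By Euclidean distance over the log2 ratios of SB over Control and Dox over SB, among the other 290 miRNAs with at least 100 reads in each library, the nearest to miR-181d-5p was miR-423-5p (distance 0.336), with log2 ratios of −1.10 and 2.11. It was followed by miR-877-5p (0.350), with −1.10 and 2.52, and miR-25-5p (0.430), with −1.004 and 2.09. The paper also measured the nearest of these by quantitative PCR in the same RNA, where it did not reach the fold criterion. In parental cells without the inducible receptor, it was the only miRNA tested that the paper found to respond to Dox. By the same method, the paper reported the activation profile for the family's dominant guide and for the guide of the neighbouring hairpin. The nearest to miR-181a-5p were let-7c-5p (0.101), with 0.31 and −0.97, miR-302d-3p (0.106), with 0.27 and −1.06, and miR-5097 (0.118), with 0.47 and −0.96. Distances over only 3 libraries describe these libraries and say nothing of shared control.

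Lists of other miRNAs give the setting of these values. All 12 miRNAs of an ES cell list, made of some but not all listed arms of the miR-290 and miR-302 clusters, were listed. They summed to 74957 rpm in Control, 59696 rpm in SB and 85035 rpm in Dox. Of this, miR-290-5p alone had 35638, 18094 and 37406 rpm. The median log2 ratio over the list was 0.20 for SB over Control and −0.60 for Dox over SB, the other way from the sums. Arms left out went both ways, such as miR-295-5p, miR-291b-5p and miR-302a-5p with the activation profile and miR-290-3p with the opposite one. Of the 12, 2 met the activation profile and 4 the opposite one, beside 20.9% and 9.67% of all listed miRNAs. Under the 6 other scalings the activation profile was met by 1 to 3, beside 11.4% to 27.7% of all listed miRNAs. The opposite one was met by 0 to 6, beside 7.65% to 16.9%. All 20 miRNAs of a list for fibroblasts and other differentiated cells were listed, and none was at 0, as no listed miRNA was in any library. They summed to 17939 rpm in Control, 34521 rpm in SB and 17378 rpm in Dox. The opposite profile was met by 17 of the 20, as by miR-181a-5p, beside 9.67% of all listed miRNAs. Under the 6 other scalings 18 to 20 met it, beside 7.65% to 16.9%. The median log2 ratio over this list was 1.11 for SB over Control and −1.48 for Dox over SB, beside 0.38 and −1.04 for miR-181a-5p, and the part of such cells in the miR-181a-5p values was not tested.

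All 15 miRNAs of a list linked to TGF-β or Smads in other cells were listed. The activation profile was met by 6 of them, beside 20.9% of all listed miRNAs. These were miR-200a-3p, miR-200b-3p, miR-200c-3p, miR-141-3p and miR-429-3p, which belong to the epithelial miR-200 family, and miR-382-5p. The opposite profile was met by 7, beside 9.67% of all listed miRNAs, among them miR-143-3p and miR-145-5p of smooth muscle and fibroblasts. The median log2 ratio of the list was 0.41 for SB over Control and −0.28 for Dox over SB. Under the 6 other scalings 3 to 6 of the list met the activation profile, beside 11.4% to 27.7% of all listed miRNAs. The opposite one was met by 7 to 8, beside 7.65% to 16.9%. miR-141-3p, miR-200b-3p and miR-429-3p lost the activation profile when scaled to reads on listed miRNAs or by TMM.

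The sizes of the ratios depended on the scaling of the libraries. Scaled to the reads on listed miRNAs, the median of all listed miRNAs for Dox over SB moved from 0.38 to −0.09, and the ratio of miR-181d-5p moved from 2.30 to 1.83, that of miR-181c-5p from 1.35 to 0.88 and that of miR-181a-5p from −1.04 to −1.51. Over the 6 other scalings the 4 arms of miR-181c and miR-181d met the activation profile in each, beside 11.4% to 27.7% of all listed miRNAs. The direction of miR-181b-5p for SB over Control was not fixed, with 0.13 as deposited and −0.11 when scaled to miR-26a-5p.

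**Figure D4:**
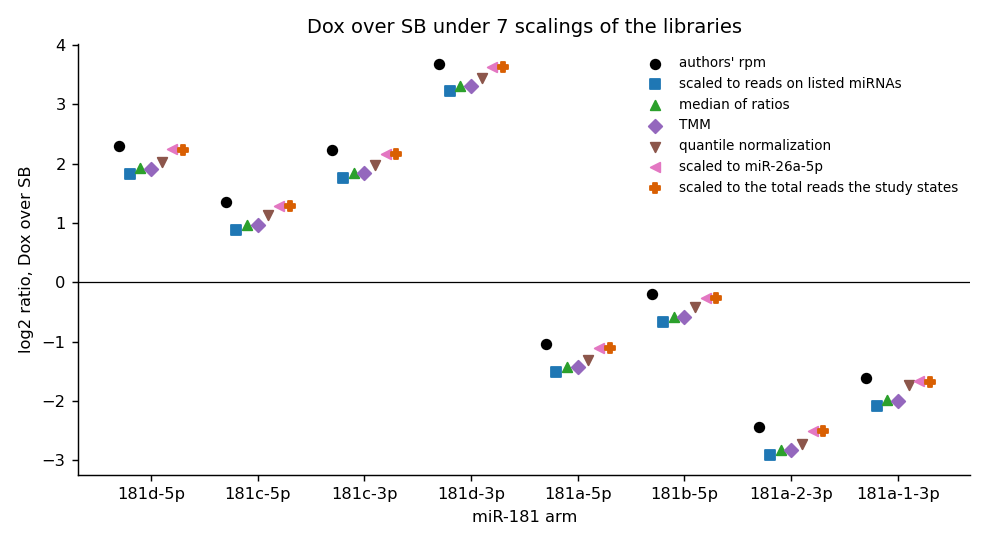
Log2 ratio of Dox over SB for each miR-181 arm under the authors' rpm (black) and 6 other scalings of the libraries (colours). For the 4 arms of miR-181c and miR-181d every point lies above 0, at 1.83 to 2.30 for miR-181d-5p, and for the 4 arms of miR-181a and miR-181b every point lies below 0.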

How the data were processed

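Small RNA of the Control, SB and Dox cells was sequenced on an Illumina GAII, in 1 library per condition with 2 runs pooled. Per the study's methods, the authors clipped adaptors, kept reads longer than 16 bases, aligned them with Bowtie 0.12.7 to the mature and then the hairpin sequences of miRBase release 18 without mismatches, gave a read that matched several miRNAs to the one nearest in length or to each, and left out miRNAs with under 10 reads in the 3 libraries together. The deposited values are in RPM: the authors divided the reads of a miRNA by the total of its library and multiplied by 1000000. A value divided by that of 1 read gave read numbers, all whole within 0.001, which imply library totals of 10955686, 11354692 and 9895513 reads. With 1 library per group no count model was fitted.

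Ratios of rpm (no pseudocount), Z-scores and exact intervals were computed for all 693 miRNAs with Python 3.11.15, numpy 2.4.6, scipy 1.17.1 and pandas 2.3.3, and the code was tested on simulated data. The miRNAs named were all listed miR-181 arms, those within 50000 bases of their hairpins, the 3 nearest in pattern to miR-181d-5p and to miR-181a-5p, miR-26a-5p and the members of 3 lists (ES cell, fibroblast or other differentiated cell, TGF-β or Smad linked), in which miR-21-5p, entered under both its names, counts once. The members and lists were chosen with earlier results of these data known. Alternatives were 6 other scalings (reads on listed miRNAs, median of ratios, TMM trimming 30% by ratio and 5% by level, quantiles, miR-26a-5p and the total reads the study states), other thresholds, a filter on low reads, a pseudocount of 1 rpm, 0.5 reads added per arm, and the summed level without miR-181d-5p.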

Additional observations from a re-analysis of the deposited data

How the results depend on the processing

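The number of members with the activation profile was 4 and became 2 (the arms of miR-181d) at a fold of 2, beside 5.92% of all listed miRNAs, and 3 with a Bonferroni threshold for the Z-score, where miR-181d-3p was lost, beside 14.3%. It was 4 under the other alternatives run. The number with the opposite profile was 1. It was 3 when scaled to reads on listed miRNAs (beside 16.9% of all listed miRNAs) or by TMM (16.2%), with miR-181a-2-3p and miR-181b-5p added, 3 by fold alone (15.3%), with the 3p arms of miR-181a added, and 2 by median of ratios (15.6%) or quantile normalization (14.4%), with miR-181a-2-3p added. It was 0 when scaled to miR-26a-5p (7.65%) or at a fold of 1.5 (6.20%) or 2 (4.47%). The log2 ratio of the summed 5p level for SB over Control was −1.04 when scaled to reads on listed miRNAs, −1.09 by median of ratios, −1.06 by TMM, −1.51 by miR-26a-5p and −0.64 without miR-181d-5p. For Dox over SB it was 1.66, 1.75, 1.75 and 2.07 in the same order of scalings, 1.89 by quantile normalization, 2.07 by the total reads the study states and 0.91 without miR-181d-5p. For Dox over Control it was 0.63, 0.67, 0.68 and 0.56, then 0.62, 0.80 and 0.27. Under these scalings the median over all listed miRNAs moved with the ratios. Of 168 alternatives for single members 70 moved the log2 ratio by more than its counting interval, and the sign changed only for miR-181b-5p in SB over Control. Across the alternatives the ratio of Dox over Control ran from 0.09 to 0.39 for miR-181c-5p, whose place above Control is therefore small under each. No paired analysis was possible because each condition had 1 library, and for the same reason no replicate could be left out. Read numbers of 4 to 25 limit the miR-181a 3p arms, and 22 reads in SB limit miR-181d-3p.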
